A study of Mus musculus with 30 samples.

Results

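The comparison of EMM at 9 h with EMM at 3 h asks what changes in mouse embryonic stem cells (ESCs) after their first response to a change of sugar, without using any Serum/LIF library. Its members were chosen by label. They are the 3 libraries of cells kept in EMM for 9 h and the 3 libraries of cells kept in EMM for 3 h, 6 of the 12 RNA-seq libraries of a time course and 6 of 30 samples in the series. All groups were E14tg2a cells, an established ESC line. Serum/LIF is ESC medium with serum and the cytokine LIF, and the labels call it the 0 h point of the time course, although the protocol text also mentions 24 h in that medium, so how long before collection its medium was changed is uncertain. EMM (Enhanced Metabolic Media) is the same medium, serum and LIF included, with D-galactose in place of D-glucose and pyruvate, so both groups compared here had serum, LIF and galactose and differed in time. Per the study's methods the 3 libraries of a group came from independent experiments, and as a single cell line was used, the spread between them is that between cultures.

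Galactose enters glycolysis slowly through the Leloir pathway, and cells that are given it in place of glucose draw more of their ATP from mitochondrial respiration. Respiring cells sense oxygen through prolyl hydroxylases of the EGLN family, which mark HIF transcription factors for destruction when oxygen is present, and HIF in turn switches on genes of glycolysis, mitophagy and collagen maturation together with its own hydroxylases. Immediate-early and serum response genes, driven by SRF and by ERK, are known for a brief peak after a change of medium. Amino acid supply is read by the kinase GCN2 and the factor ATF4, which switches on serine synthesis, amino acid transport and tRNA charging.

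Total counts were 29549385, 32019260 and 35301962 at 3 h and 32501341, 31443876 and 28284399 at 9 h. All 10 markers of ESCs were detected, with summed levels of 188655 to 189457 normalized counts at 3 h and 182552 to 185404 at 9 h, against 1829 to 2146 and 1758 to 1895 for 10 fibroblast markers and 352 to 369 and 405 to 477 for 9 endoderm markers. The largest sum for another cell type was that of 8 neural markers, 6189 to 6425 at 3 h and 4629 to 5593 at 9 h. Of the markers of other cells, Ttr (endoderm) and Prl3d1 (trophoblast) were at 0 in all 12 libraries, and Elf5 and Afp did not exceed 3 counts in any. Of the detected ones Dcn (fibroblast, from 3.58 to 13.2 normalized counts on average) rose by 1.90 and Thy1 fell by 0.70, though no fibroblast marker rose without replicate 2 of 9 h or replicate 2 or 3 of 3 h, with the replicate block or by DESeq2. Of the neural ones Pax6 rose by 0.78 and Nes fell by 0.78. Of 6 mesoderm markers tested 1 rose and of 6 trophoblast markers 1 fell, each 0 to 1 with any 1 library left out. Of the 10 ESC markers 3 rose and 4 fell, and no endoderm marker passed the test. These are RNA levels in whole cultures, in which fewer cells of a type and less RNA per cell cannot be told apart. Replicate 3 of 9 h stood apart from the other 5 libraries. Rpl36, a ribosomal protein gene, had 12860 normalized counts there and 1613 to 2056 in the other 5, histone genes of the clusters made up 28.0 CPM (counts scaled to a common library total) there and 15.4 to 17.9 CPM in the others, and its genes deviated more from the mean of the other replicates of 9 h (root mean square 0.179 on the log2 scale) than those of replicates 1 and 2 (0.113 and 0.128). Counts of calls, and of members of several of the lists, are therefore also given without that library. The part of these differences in any result was not tested, except where a value without the library is given.

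Of 15505 genes tested, 131 were higher and 127 lower at 9 h than at 3 h by more than 1 on the log2 scale with an adjusted p under 0.01 (edgeR's quasi-likelihood test, Benjamini-Hochberg), which is 0.845% and 0.819% of the genes. Without the fold threshold, 2376 genes (15.3%) were higher and 2078 (13.4%) lower, and the median log2 fold change of all tested genes was 0.013. The counts of list members that rose or fell use this rule and are to be read against these shares of all genes. In all 131 and all 127 the libraries of the 2 groups did not overlap in normalized counts, against 26.3% of tested genes with the 3 libraries of 9 h all above those of 3 h and 26.8% with them all below. The calls rest on the same values and nearly require this, so it adds no separate support. Protein-coding genes made up 117 and 119 of the calls. Without replicate 3 of 9 h there were 138 higher and 144 lower, of which 111 and 107 were among the 131 and 127. Called genes were of low abundance, with median levels of 40.7 normalized counts for those called higher and 30.6 for those called lower, against 526 for all tested genes. Genes called lower were shorter (median 12247 bases from first to last base of the gene) than those called higher (27938 bases) and than all tested genes (20552 bases). The plot of fold change by level shows the calls at both ends of the range.

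**Figure D1:**
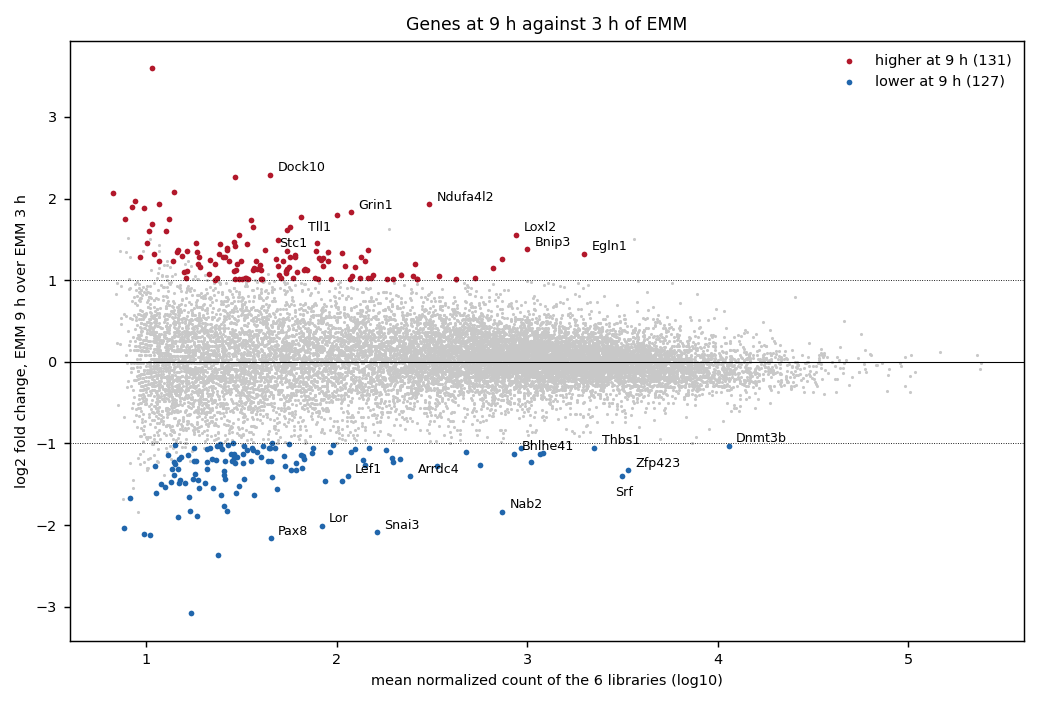
Each point is 1 of 15505 genes, by the mean normalized count of the 6 libraries (x axis, log10) and the log2 fold change of EMM at 9 h over EMM at 3 h (y axis). Red points are the 131 genes called higher, blue points the 127 called lower, and dotted lines mark log2 fold changes of 1 and -1. The names mark genes described in the text, such as Egln1 (log2 fold change 1.32) among those that rose and Srf (-1.40) among those that fell.

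To show the DNA near some genes of the results, promoters of 3 groups are printed here from RefSeq (GRCm38.p6), each from 250 bases before to 50 bases after the annotated start, 5′ to 3′ on the strand of the gene. Only promoters that hold the motif of their group are printed. The first 3 belong to genes of the hypoxia response that rose, and capitals mark ACGTG, the core of the element that HIF binds, on either strand.
Bnip3, chr7:138909457-138909756, minus strand: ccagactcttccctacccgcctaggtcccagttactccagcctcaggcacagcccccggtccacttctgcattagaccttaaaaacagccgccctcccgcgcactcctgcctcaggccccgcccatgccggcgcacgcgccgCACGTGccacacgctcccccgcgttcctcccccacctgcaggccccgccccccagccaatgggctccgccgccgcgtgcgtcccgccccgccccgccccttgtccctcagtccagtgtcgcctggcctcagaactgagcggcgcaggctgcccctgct
Egln1, chr8:124949205-124949504, minus strand: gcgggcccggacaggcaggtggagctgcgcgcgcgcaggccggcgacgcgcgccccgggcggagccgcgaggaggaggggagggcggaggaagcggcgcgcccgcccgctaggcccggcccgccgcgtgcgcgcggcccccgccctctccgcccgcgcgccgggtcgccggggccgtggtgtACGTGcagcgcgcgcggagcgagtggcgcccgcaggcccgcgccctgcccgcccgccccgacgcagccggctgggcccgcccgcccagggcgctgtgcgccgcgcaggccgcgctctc
P4ha1, chr10:59323046-59323345, plus strand: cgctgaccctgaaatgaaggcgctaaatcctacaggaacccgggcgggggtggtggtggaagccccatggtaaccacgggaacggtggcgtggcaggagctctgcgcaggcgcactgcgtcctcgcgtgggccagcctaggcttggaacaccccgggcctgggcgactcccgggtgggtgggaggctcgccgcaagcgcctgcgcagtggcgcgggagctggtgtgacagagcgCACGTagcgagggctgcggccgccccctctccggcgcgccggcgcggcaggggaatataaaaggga
The next belong to genes of the serum response that fell, and capitals mark the CArG box, the element that SRF binds.
Srf, chr17:46556113-46556412, minus strand: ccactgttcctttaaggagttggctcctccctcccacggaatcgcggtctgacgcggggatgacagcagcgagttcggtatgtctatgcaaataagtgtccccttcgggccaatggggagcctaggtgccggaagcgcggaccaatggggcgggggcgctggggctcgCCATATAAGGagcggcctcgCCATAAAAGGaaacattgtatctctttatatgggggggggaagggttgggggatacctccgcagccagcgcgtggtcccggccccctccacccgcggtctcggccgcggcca
Vcl, chr14:20929148-20929447, plus strand: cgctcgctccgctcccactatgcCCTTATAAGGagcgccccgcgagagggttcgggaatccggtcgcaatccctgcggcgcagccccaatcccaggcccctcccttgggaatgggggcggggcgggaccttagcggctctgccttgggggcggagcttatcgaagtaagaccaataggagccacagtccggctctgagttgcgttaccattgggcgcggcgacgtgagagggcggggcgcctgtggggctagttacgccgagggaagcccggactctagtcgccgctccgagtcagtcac
The last belong to genes of tRNA charging and of the amino acid response that fell, and capitals mark TGATGCAA, a sequence of the kind bound by ATF4 with a partner, which lies on the opposite strand in all 3 and so reads as its reverse complement.
Aars, chr8:111033592-111033891, plus strand: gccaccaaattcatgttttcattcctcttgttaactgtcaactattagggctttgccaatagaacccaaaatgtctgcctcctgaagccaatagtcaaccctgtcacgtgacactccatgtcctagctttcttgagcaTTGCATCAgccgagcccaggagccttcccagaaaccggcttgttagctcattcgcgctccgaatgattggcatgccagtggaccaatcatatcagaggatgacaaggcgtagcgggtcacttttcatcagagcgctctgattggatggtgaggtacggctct
Tars, chr15:11399609-11399908, minus strand: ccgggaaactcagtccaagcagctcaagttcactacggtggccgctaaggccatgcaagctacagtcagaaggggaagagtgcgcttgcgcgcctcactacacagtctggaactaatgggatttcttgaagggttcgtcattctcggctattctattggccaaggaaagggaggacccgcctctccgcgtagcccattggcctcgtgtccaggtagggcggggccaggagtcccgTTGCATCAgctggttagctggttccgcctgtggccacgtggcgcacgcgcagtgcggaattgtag
Chac1, chr2:119350992-119351291, plus strand: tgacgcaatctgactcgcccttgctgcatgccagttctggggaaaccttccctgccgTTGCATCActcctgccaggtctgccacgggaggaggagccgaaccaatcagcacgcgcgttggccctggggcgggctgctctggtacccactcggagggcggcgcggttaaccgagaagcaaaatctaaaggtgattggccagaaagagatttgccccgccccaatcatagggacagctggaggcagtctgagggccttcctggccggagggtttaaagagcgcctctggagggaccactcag

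In these windows the match began 68 bases before the start in Egln1 and 16 in P4ha1, where it lies on the opposite strand. In Bnip3 a palindrome, CACGTG, gave overlapping matches on both strands that began 108 and 107 bases before it. The Srf promoter held 2 CArG boxes, 82 and 62 bases before the start, and that of Vcl held 1, 227 bases before it. Those of Nab2 and Zyx, which also fell, were searched in the same way and held none. TGATGCAA began 112 bases before the start of Aars, 15 before that of Tars and 193 before that of Chac1. Of the 17 hypoxia targets with a promoter in the table, 11 (64.7%) held ACGTG on either strand, against 25.5% of 11140 promoters of tested genes. The CArG box was in 6 of 21 promoters (28.6%) of the list of SRF and YAP targets and in 1.3% of all, and TGATGCAA was in 4 of 12 promoters (33.3%) of the aminoacyl-tRNA synthetases and in 0.575% of all. These lists were drawn up from known targets, so such shares describe the lists and were not tested. All motifs were searched on both strands, ACGTG is part of CACGTG, and the CArG box was added after the values were seen. Among all genes called higher ACGTG was in 20 of 86 promoters (23.3%), and among those called lower the CArG box was in 3 of 96 (3.12%) and TGATGCAA in 0 of 96. CCAAT, the box of the factor NF-Y, was in 46 of 96 promoters (47.9%) of genes called lower, 24 of 86 (27.9%) of those called higher and 38.7% of all. TGANTCA, the site of AP-1 factors, was in 12 of 96 (12.5%) of the promoters of genes called lower, 3 of 86 (3.49%) of those called higher and 4.68% of all. These were picked from a longer set of motifs, others of which differed too. In genes called lower, called higher and all, CACGTG was in 12.5%, 3.49% and 10.2%. In the same order CCGGAAGT, an ETS site, was in 2.08%, 1.16% and 7.94%, and GGGCGG, the GC box, in 49.0%, 60.5% and 64.8%. None of these shares was tested.

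Genes of the hypoxia response rose from 3 h to 9 h. Of 20 hypoxia targets, all tested, 11 (55.0%) rose, 1 fell and the median log2 fold change was 0.40, against 15.3% of all genes rising and a median of 0.013. The count was 13 without replicate 3 of 9 h and 10 to 13 with any 1 library left out. Bnip3, a mitochondrial receptor for mitophagy on chromosome 7 (138890836 to 138909519, minus strand, GRCm38), had 601, 482 and 595 normalized counts at 3 h and 1196, 1550 and 1595 at 9 h. All 3 libraries of 9 h lay above those of 3 h, and the log2 fold change was 1.38 (SE 0.11, edgeR adjusted p = 4.9e-06). Egln1, the main oxygen-sensing prolyl hydroxylase (chromosome 8, 124908587 to 124949324), had 1300, 1012 and 1129 counts at 3 h and 2518, 3266 and 2730 at 9 h. It rose by 1.32 on the log2 scale (SE 0.10, edgeR adjusted p = 3e-06), and its paralog Egln3, itself a HIF target, rose by 1.03 (SE 0.18, edgeR adjusted p = 0.000889). The levels of Egln3 were more spread, with 391, 250 and 402 at 3 h and 525, 812 and 794 at 9 h. The subunits of collagen prolyl 4-hydroxylase, which matures collagen in the endoplasmic reticulum, rose with them. P4ha1 went from 837 ± 24.4 (SD, n = 3) to 1601 ± 205 (SD, n = 3) normalized counts and P4ha2 from 280 ± 9.52 to 567 ± 66.1 (SD, n = 3 each), log2 fold changes of 0.94 and 1.02. The angiogenic factor Vegfa rose by 0.78, the mitochondrial protein gene Higd1a by 0.72, the mitophagy receptor Bnip3l by 0.47 and the histone demethylase Kdm3a by 0.38.

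The genes that encode the HIF alpha subunits were not among those that rose. Hif1a had 6955, 6878 and 7373 normalized counts at 3 h and 6744, 6693 and 6481 at 9 h, a log2 difference of -0.08 with an SE of 0.04 (adjusted p = 0.0935, edgeR). Epas1, which encodes HIF2A, fell by 0.25 (edgeR adjusted p = 0.000774). These are mRNA levels, and HIF is set mainly by protein stability, which was not measured here. Pdk1, Ndrg1, Mxi1, Adm, Car9, Ankrd37 and Ddit4 did not pass the test, with log2 fold changes of 0.09, 0.07, 0.21, -0.09, -0.05, 0.41 and 0.34.

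Among the 15 largest rises were Ndufa4l2, Loxl2 and Stc1, which hypoxia is known to raise. They are outside the list of hypoxia targets and were tied to it after their values were seen. The share of such genes among all tested genes was not computed. Ndufa4l2, a mitochondrial protein that lowers respiration (chromosome 10, 127514967 to 127517154, plus strand), had 128, 124 and 130 normalized counts at 3 h and 395, 480 and 576 at 9 h. Its log2 fold change was 1.93 (SE 0.13, edgeR adjusted p = 1.85e-06). It overlaps Shmt2 on the opposite strand, which fell by 0.16, and whether the counting used strand is not given in the sources used here. Loxl2, a lysyl oxidase that cross-links collagen, had 417, 451 and 470 counts at 3 h and 1143, 1398 and 1379 at 9 h, a log2 fold change of 1.56. Stc1, a secreted glycoprotein, had 30.9, 20.9 and 30.2 counts at 3 h and 64.5, 96.7 and 96.4 at 9 h, a log2 fold change of 1.65. In each of these genes and in Bnip3, Egln1, Egln3, P4ha1 and P4ha2, replicate 1 was the lowest of the 3 libraries of 9 h and still lay above every library of 3 h. Ero1l, an oxidase of the endoplasmic reticulum listed among its chaperones, rose by 0.94 (SE 0.05, edgeR adjusted p = 6.19e-07).

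Given the uncertain timing of Serum/LIF, the mean levels of these genes there and at 24 h of EMM only stand beside those at 3 and 9 h, with no test, since those libraries lie outside the comparison. Bnip3 had 1123 normalized counts in Serum/LIF, 559 at 3 h, 1447 at 9 h and 747 at 24 h. Egln1 had 1320, 1147, 2838 and 1441 in the same order, Loxl2 had 678, 446, 1306 and 862, and Ndufa4l2 had 248, 127, 484 and 185. In all 8 genes plotted the mean of 9 h was the highest of the 4 groups, and in 6 of the 8 that of 3 h was the lowest.

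**Figure D2:**
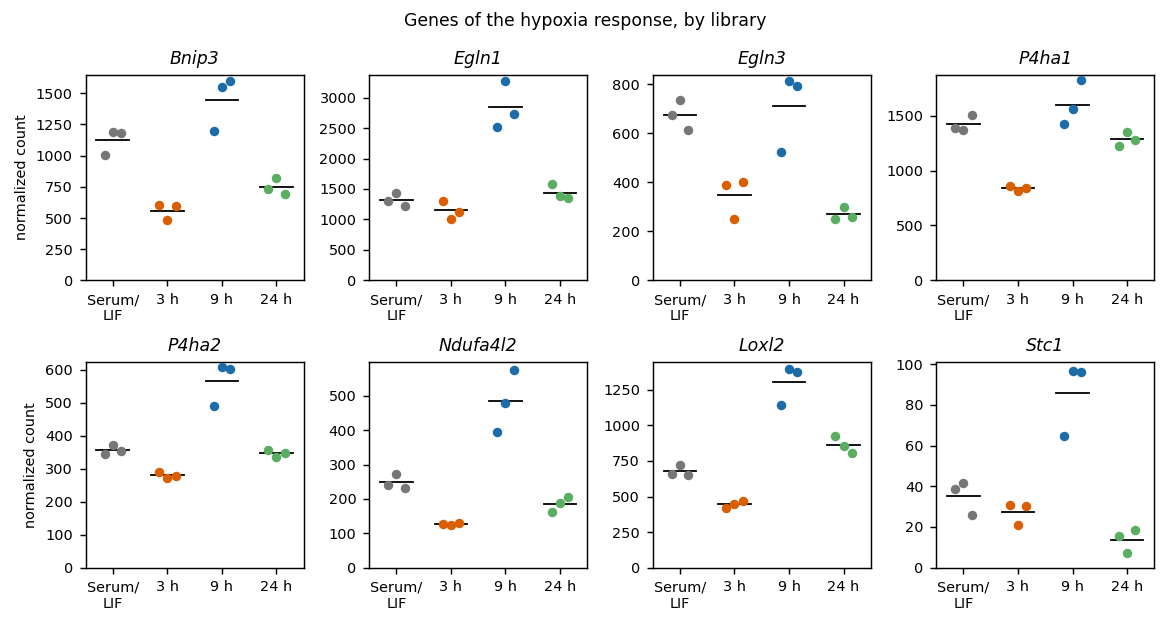
Normalized counts (y axis, from 0) of 8 genes of the hypoxia response in Serum/LIF and after 3, 9 and 24 h of EMM (x axis), with 1 point per library, 3 libraries per group and a bar at the mean. The 3 libraries of 9 h lie above all 3 of 3 h in every panel, as in Bnip3 (1196 to 1595 against 482 to 601). Ndufa4l2, Loxl2 and Stc1 are outside the list of hypoxia targets.

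Genes of glycolysis rose to a smaller extent. Of 23 glycolysis genes 11 rose (47.8%) and 2 fell (0 to 2 with any 1 library left out, 0 without replicate 1 of 3 h), with a median of 0.20. The rises were 14 without replicate 3 of 9 h and 8 to 14 with any 1 library left out. In the list of pyruvate entry to mitochondria 3 of 12 rose (2 without replicate 1 of 9 h or replicate 1 or 3 of 3 h) and none fell, and in the pentose phosphate list 1 of 7 rose and 2 fell, with a median of -0.11. The rise, of Pgd by 0.22, lost its call under 9 alternatives (adjusted p up to 0.048), among them leaving out any 1 library other than replicate 3 of 9 h. Slc16a3, the lactate exporter MCT4, had 4209, 3563 and 3915 normalized counts at 3 h and 7268, 8384 and 7045 at 9 h, a change of 0.97 on the log2 scale (SE 0.07, adjusted p = 2.09e-06 by edgeR). Ldhb, a subunit of lactate dehydrogenase, rose by 0.64, the hexokinase Hk1 by 0.47, the glucose transporter Slc2a1 by 0.39 and the isomerase Gpi1 by 0.36, while Ldha fell by 0.14 and the phosphofructokinase Pfkm by 0.31. In the Leloir list 2 of 8 rose and 2 fell. Pgm1, which makes glucose 6-phosphate, rose by 0.96 and the mutarotase Galm by 0.61, while the phosphoglucomutase Pgm2 fell by 0.30 and the galactokinase Galk1 fell by 0.21 and lost its call without any 1 of the 3 libraries of 3 h (adjusted p up to 0.0161). Pgm1 overlaps Itgb3bp on the opposite strand. Arrdc4, an arrestin gene that the glucose-sensing factor MondoA drives, fell by 1.40. It had 382, 366 and 311 counts at 3 h and 125, 135 and 137 at 9 h, beside a mean of 1577 in Serum/LIF. Mlxipl, which encodes ChREBP, fell by 0.64 and Mlxip, which encodes MondoA, had a log2 fold change of 0.15.

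Of 76 nuclear genes of the respiratory chain 5 rose (6.58%, against 15.3% of all genes) and 1 fell, with a median of 0.04. The rises were 2 to 5 with any 1 library left out (2 without replicate 1 of 3 h, 3 without replicate 2 or 3), 8 with library totals alone and 14 with no filter on low counts. The falls were 2 without replicate 3 of 9 h and 0 without replicate 1 of 9 h or replicate 1 or 2 of 3 h, and Atp5a1, a subunit of ATP synthase, had a log2 fold change of 0.02. Of 80 cytosolic ribosomal protein genes 1 rose and 2 fell. Without replicate 3 of 9 h 5 rose and 4 fell, none rose without replicate 1 or 3 of 3 h, and the rises were 10 with library totals alone and 14 with no filter on low counts, where the falls were 4. Of the 7 mitochondrially encoded genes tested none rose and 2 fell, mt-Nd2 by 0.21 and mt-Nd1 by 0.17, calls lost under 6 and 7 of the alternatives, library totals alone among both. The falls were 4 without replicate 1 of 9 h, 0 without replicate 2 of 9 h or any library of 3 h, and 6 with no filter on low counts. Their share of all counts was 2.11% to 2.21% at 3 h and 1.97% to 2.21% at 9 h. In the TCA cycle and glutamine list 8 of 26 rose (30.8%, against 15.3% of all genes) and 5 fell (19.2%, against 13.4%). Its rises were 12 without replicate 3 of 9 h and 6 to 12 with any 1 library left out. The alanine transaminase Gpt2 rose by 0.57 and the isocitrate dehydrogenase Idh2 by 0.41, while glutamine synthetase, Glul, fell by 0.72.

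Genes of cholesterol synthesis rose in small steps. Of 24 genes of cholesterol synthesis and uptake 12 rose and none fell, against 15.3% of all genes rising and 13.4% falling, with a median of 0.16 and a range of 0.01 to 0.58. The count was 14 without replicate 3 of 9 h and 11 to 14 with any 1 library left out. Hmgcs1, which makes HMG-CoA, had 6508, 6161 and 6258 normalized counts at 3 h and 7987, 7788 and 7469 at 9 h, a log2 fold change of 0.31. Insig1, which holds back sterol synthesis, rose by 0.38. In fatty acid synthesis 4 of 13 rose and 1 fell, with a median of 0.10. The desaturase gene Scd2 rose by 0.79, Scd1 by 0.58 and Elovl6, an elongase, by 0.54, while Acaca, which makes malonyl-CoA, fell by 0.30. Scd2 had 19634, 17591 and 18598 counts at 3 h and 31048, 33142 and 31840 at 9 h, with no overlap. In fatty acid oxidation 6 of 21 rose (28.6%) and 4 fell (19.0%), with 2 to 8 rises (lowest without replicate 1 of 3 h) and 1 to 4 falls (lowest without replicate 1 of 9 h or replicate 2 of 3 h) when 1 library was left out. Cpt1a, which brings fatty acids into mitochondria, rose by 0.47.

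Genes of the serum response fell over the same interval. Of 25 SRF and YAP targets and actin genes tested 14 fell (56.0%) and 1 rose, with a median of -0.37, against 13.4% of all genes falling. The count was 14 to 16 with any 1 library left out. Srf, the serum response factor (chromosome 17, 46548329 to 46556175, minus strand), had 4496, 4687 and 4480 normalized counts at 3 h and 1766, 1891 and 1501 at 9 h. The groups lay far apart, at a log2 difference of -1.40 with an SE of 0.06 (adjusted p = 2.23e-07, edgeR). Thbs1, which encodes thrombospondin, fell by 1.05, the matricellular gene Ccn1 by 0.86 and Ccn2 by 0.49. Zyx, which encodes zyxin, a focal adhesion protein, fell by 0.85, and Vcl, which encodes vinculin, had 4925, 4856 and 5024 counts at 3 h and 2753, 2918 and 2755 at 9 h, a log2 fold change of -0.80. Actb went from 115826 to 88823 counts on average, a log2 fold change of -0.37, while Acta1 rose by 0.37. The rises of the list were 0 to 2 with any 1 library left out (0 without replicate 1 or 2 of 9 h or replicate 1 or 3 of 3 h, 2 without replicate 3 of 9 h or replicate 2 of 3 h). Ankrd1, a YAP target named after its values were seen, was at a low level and had a log2 fold change of -1.83, with 35.0, 43.6 and 45.8 counts at 3 h and 13.6, 8.53 and 12.4 at 9 h.

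The ERK output list was mixed in direction, with 9 of 24 lower (37.5%) and 4 higher (16.7%). The phosphatase gene Dusp4 had 6617, 6511 and 6487 normalized counts at 3 h and 3403, 3655 and 3128 at 9 h, a log2 fold change of -0.94. Dusp5 fell by 0.84 and Dusp6 by 0.36, and Dusp1 did not pass. The AP-1 subunit Fosl1 fell by 1.06, from 101, 115 and 88.1 counts to 41.8, 55.0 and 47.7, and Spry4, a feedback inhibitor, by 0.25. Nab2, a co-repressor of EGR factors that they themselves induce, had 1276, 1133 and 1059 counts at 3 h and 334, 322 and 302 at 9 h, a change of -1.84 on the log2 scale (SE 0.08, adjusted p = 8.38e-08 by edgeR). Egr3, named after its values were seen, fell by 1.89 at 29.2 and 7.73 mean counts. The early genes Fos, Egr1 and Jun did not pass the test, with log2 fold changes of 0.30, -0.12 and -0.01. Ier3 rose by 0.70. Nab2 overlaps Stat6 and Nemp1, Zyx overlaps Epha1, Vcl overlaps Ap3m1 and Fosl1 overlaps Ccdc85b, all on the opposite strand.

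Means in Serum/LIF, whose time since a change of medium is uncertain, and at 24 h are given for the same genes, again with no test. Srf had 2285 normalized counts in Serum/LIF, 4554 at 3 h, 1719 at 9 h and 1867 at 24 h. Nab2 had 235, 1156, 319 and 343, and Vcl had 2502, 4935, 2809 and 2867. In these 3 genes the mean of 3 h was the highest of the 4 groups, and those of 9 h and 24 h lay closer to that of Serum/LIF.

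**Figure D3:**
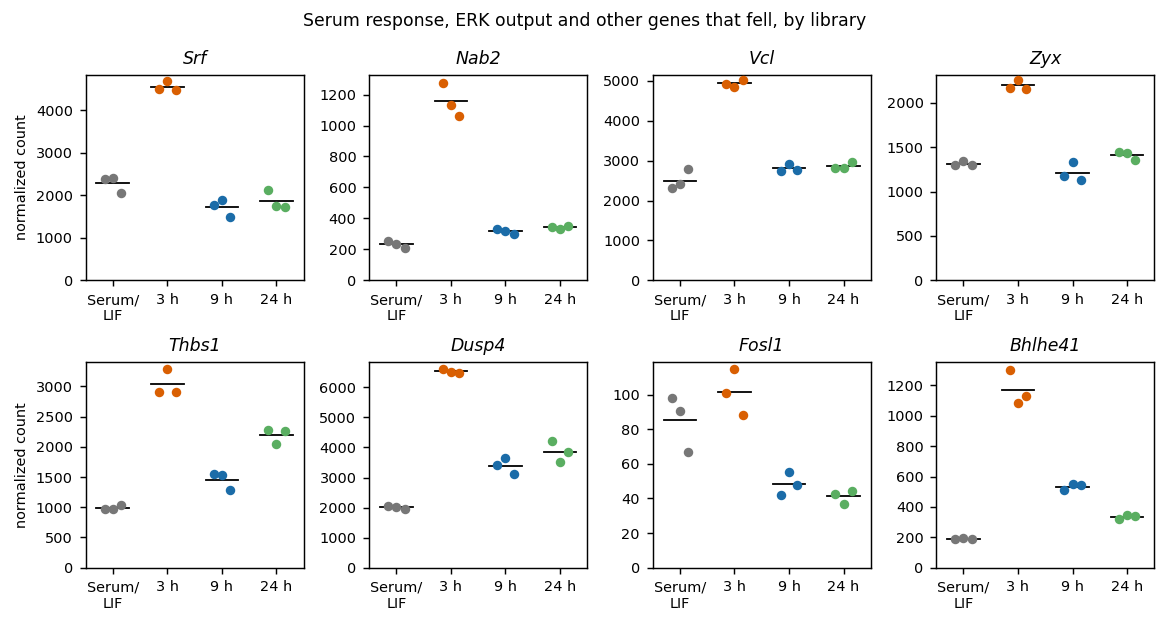
Normalized counts (y axis, from 0) of 8 genes that fell between 3 h and 9 h of EMM, in Serum/LIF and after 3, 9 and 24 h of EMM (x axis), with 1 point per library and a bar at the mean of 3. The libraries of 9 h lie below all those of 3 h in every panel, as in Srf (1501 to 1891 against 4480 to 4687).

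Genes of tRNA charging fell by small amounts. Of 20 cytosolic aminoacyl-tRNA synthetase genes, which load amino acids onto tRNAs, 17 fell (85.0%) and none rose, with a median of -0.26 and a lowest value of -0.43. The count was 14 to 17 with any 1 library left out. Cars had 5585, 5288 and 5357 normalized counts at 3 h and 3919, 3937 and 4077 at 9 h, a log2 difference of -0.43 with an SE of 0.04 (adjusted p = 5.68e-06, edgeR), and Gars fell by 0.37. Of Aars and Tars, whose promoters are shown above, the first fell by 0.23 and the second by 0.27. In Tars replicate 3 of 9 h, at 8154 counts, lay nearer to the range of 3 h (8754 to 9038) than replicates 1 and 2 (6833 and 6974).

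The 3 genes of serine synthesis fell. Psat1 (chromosome 19, 15904678 to 15947337, minus strand) had 11739, 11350 and 11429 normalized counts at 3 h and 6131, 6773 and 6473 at 9 h, a change of -0.82 on the log2 scale (SE 0.04, adjusted p = 2.23e-07 by edgeR). Psph fell by 0.77, overlapping Cct6a on the opposite strand, and Phgdh, the first enzyme, by 0.63. In the whole list of 17 serine and one-carbon genes 9 fell and 2 rose, a count of falls that was 5 without replicate 1 of 9 h, replicate 1 of 3 h or replicate 2 of 3 h. Aldh1l1, which burns one-carbon units, rose by 0.77, and the rises of the list were 1 when any 1 library other than replicate 3 of 9 h was left out. Among 18 amino acid transporters 7 fell (38.9%, against 13.4% of all genes) and 3 rose (16.7%). Slc7a7 fell by 0.67, Slc38a4 by 0.59 and Slc3a2, the shared heavy chain, by 0.53, while Slc1a4 rose by 0.74. Of 22 genes of the integrated stress response 8 fell (36.4%) and 2 rose (9.09%), and the rises were 4 with library totals alone and 6 with no filter on low counts. Its members Aldh18a1 and Pycr1, which make proline, fell by 0.64 and 0.63. Its factor Atf4 did not pass the test (log2 fold change 0.03, edgeR adjusted p = 0.471), nor did Trib3 (0.03) or Asns (-0.13), whereas Chac1, which degrades glutathione, fell by 0.53 and the lipoprotein receptor Vldlr rose by 0.86.

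Genes of ribosome assembly fell as well. Of 28 ribosome biogenesis genes 19 fell (67.9%) and none rose, with a median of -0.25. The count was 22 without replicate 3 of 9 h and 16 to 22 with any 1 library left out. Polr1b, a subunit of RNA polymerase I, had 5962, 6034 and 6009 normalized counts at 3 h and 4421, 4537 and 4107 at 9 h, a log2 fold change of -0.45. Bop1 fell by 0.42 and Rrp9 and Rrp1b by 0.41 each, while Nop56 had a log2 fold change of 0.06. Of 77 mitochondrial ribosomal protein genes 16 fell (20.8%, against 13.4% of all genes) and 1 rose, a count of falls that was 22 without replicate 3 of 9 h, 5 to 10 without any of the other 5 libraries (lowest without replicate 2 of 3 h) and 7 with library totals alone. The rises were 2 without replicate 2 of 9 h and 5 with no filter on low counts.

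**Figure D4:**
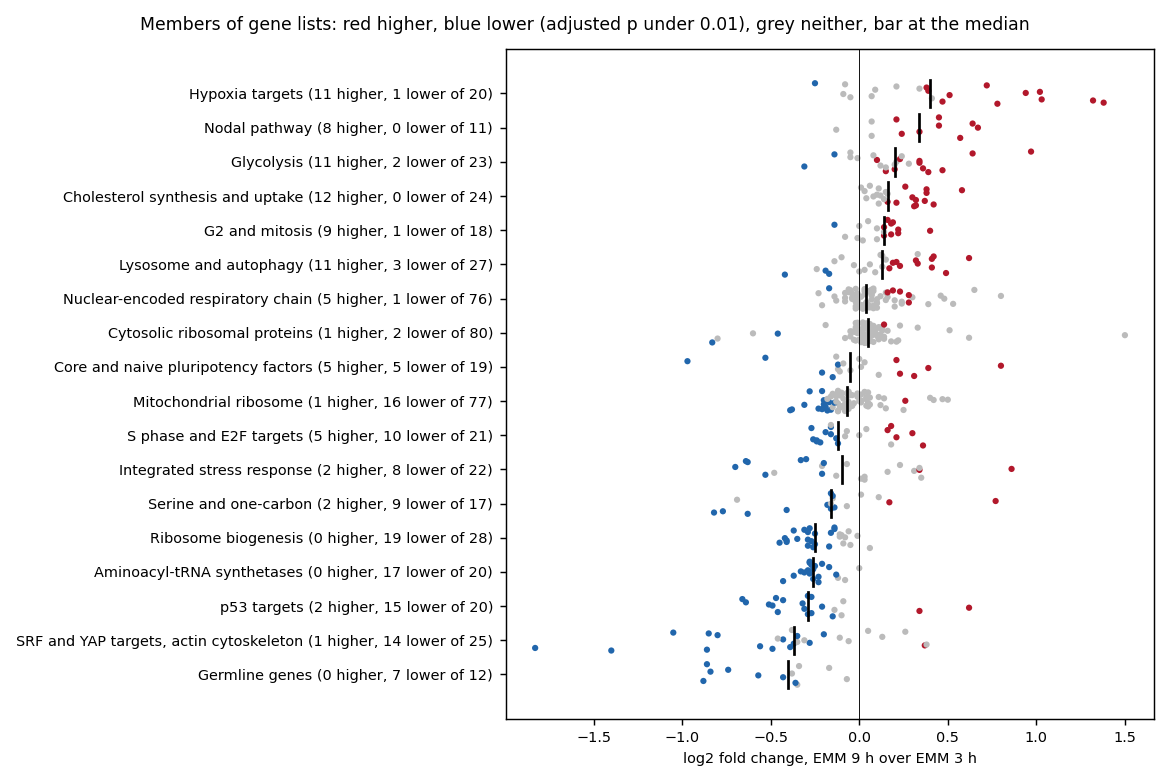
Log2 fold changes of EMM at 9 h over EMM at 3 h (x axis) for the tested members of 18 gene lists (y axis), with 1 point per gene, red and blue for genes past an adjusted p of 0.01, grey for the others, and a black bar at the median. Hypoxia targets have the highest median of the lists plotted (0.40) and germline genes the lowest (-0.40), while respiratory chain and cytosolic ribosomal protein genes crowd around 0.

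Targets of p53 fell as well, 15 of 20 tested (75.0%), with 2 higher and a median of -0.29. Plk2 fell by 0.66, Phlda3 by 0.64, Zmat3 by 0.51, and the death gene Bbc3 by 0.46. Zmat3 had 4378, 4082 and 4290 normalized counts at 3 h and 2974, 2879 and 3031 at 9 h, and the groups did not overlap. Trp53 itself fell by 0.15, a call lost without replicate 2 of 3 h (adjusted p = 0.0111), and Cdkn1a, its best known target, had a log2 fold change of -0.10 and did not pass. Sesn1 rose by 0.62. In the Bcl2 family 5 of 15 rose and 5 fell, or 3 without replicate 2 of 3 h. The survival gene Bcl2 rose by 0.68 and Bcl2l2 by 0.56, while of the death genes Bok fell by 0.79 and Bmf rose by 0.57. In the list of S phase and E2F targets 10 of 21 fell, among them the helicase subunits Mcm2 to Mcm7 by 0.12 to 0.26, and 5 rose. The falls were 6 or 7 without replicate 1 of 9 h or any library of 3 h, and the rises were 3 without replicate 1 of 9 h or replicate 1 or 3 of 3 h. In the G2 and mitosis list 9 of 18 rose by up to 0.40 (Bub1) and 1 fell, but the rises were 3 to 5 without replicate 1 or 2 of 3 h or replicate 2 of 9 h, and there was no fall without replicate 1 of 9 h or any 1 library of 3 h or with library totals alone. Of the CDK inhibitors Cdkn2c rose by 1.01, Cdkn1b by 0.72 and Cdkn2d by 0.63, while Cdkn1c fell by 0.64, and the cyclin Ccnd1 fell by 0.48.

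The writers of new DNA methylation fell together. Dnmt3b, a de novo methyltransferase (chromosome 2, 153649450 to 153687730, plus strand), had 15232, 15436 and 15509 normalized counts at 3 h and 7460, 7590 and 7379 at 9 h. It fell by 1.03 (SE 0.03, edgeR adjusted p = 6.62e-09), in a narrow spread on both sides. Dnmt3a had 2416, 2478 and 2468 counts and then 1290, 1373 and 1220, a log2 fold change of -0.91, and their cofactor Dnmt3l fell by 0.57. The maintenance genes Dnmt1 (0.10) and Uhrf1 (0.04) did not pass the test, and of the demethylation genes Tet2 rose by 0.24, a call lost under 4 alternatives (adjusted p up to 0.0268), while Tet1 had a log2 fold change of 0.01. Germline genes, many of which are kept silent by methylation, were not higher. Of 12 tested 7 fell and none rose, among them Mael by 0.88, Mov10l1 by 0.86 and Tdrd1 by 0.84. Tdrd1 had 122, 117 and 115 normalized counts at 3 h and 62.7, 72.0 and 61.2 at 9 h.

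Pluripotency factors shifted in both directions. Of 19 core and naive factors 5 rose and 5 fell (8 with no filter on low counts). Prdm14, a repressor of the de novo methyltransferases, had 331, 293 and 287 normalized counts at 3 h and 522, 554 and 496 at 9 h, a log2 difference of 0.80 with an SE of 0.07 (adjusted p = 1.04e-05, edgeR). Tfcp2l1 rose by 0.39, Sox2 by 0.31 and Nanog by 0.23. Dppa3 fell by 0.97 and Utf1 by 0.53, with smaller falls for Esrrb (0.21) and Pou5f1 (0.15). Klf4 (-0.05) and Tbx3 (0.01) did not pass the test. Among 18 formative and primed genes 8 fell (44.4%) and 2 rose (11.1%). The rises were 0 without replicate 2 or 3 of 3 h, 1 without replicate 1 of 3 h or replicate 2 of 9 h and 3 without replicate 1 or 3 of 9 h. Lef1, a Wnt effector, had 167, 183 and 149 counts at 3 h and 73.6, 51.2 and 62.2 at 9 h, a log2 fold change of -1.40, and Fgf5 fell by 0.69 and Pou3f1 by 0.61, whereas Otx2 had 0.33 and did not pass (edgeR adjusted p = 0.0153). Sirt1, a deacetylase, fell by 0.19, from 8846 to 9134 counts at 3 h to 7508 to 8115 at 9 h, beside a mean of 5149 in Serum/LIF.

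Signalling lists differed in direction. In the Nodal pathway 8 of 11 genes tested rose (72.7%) and none fell, with a median of 0.34 and a count of 7 to 8 with any 1 library left out. The ligand Nodal rose by 0.57, the co-receptor Tdgf1 by 0.24, and the targets and inhibitors Lefty1 and Lefty2 by 0.67 and 0.45. Lefty1 had 3551, 3524 and 3515 normalized counts at 3 h and 5356, 5696 and 5713 at 9 h, beside means of 5036 in Serum/LIF and 3732 at 24 h. In the Wnt list 4 of 19 rose (21.1%, against 15.3% of all genes) and 5 fell (26.3%, against 13.4%), and the rises were 2 without replicate 2 of 9 h or replicate 2 or 3 of 3 h. Its members included Axin2, a feedback target, at 0.68 and Wnt7b at -0.93. In the list of the BMP pathway and Id genes 2 of 16 rose and 2 fell (12.5% each), with a median of 0.0. The falls were 1 to 2 with any 1 library left out. Of the Id genes, BMP targets, Id4 rose by 0.99 and Id3 by 0.71 while Id2 fell by 0.61. In the LIF and STAT3 list 2 of 14 rose (14.3%) and 4 fell (28.6%), with 3 to 5 falls when any 1 library was left out. The gp130 receptor gene Il6st rose by 0.39 and the LIF target Bcl3 fell by 0.58.

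**Figure D5:**
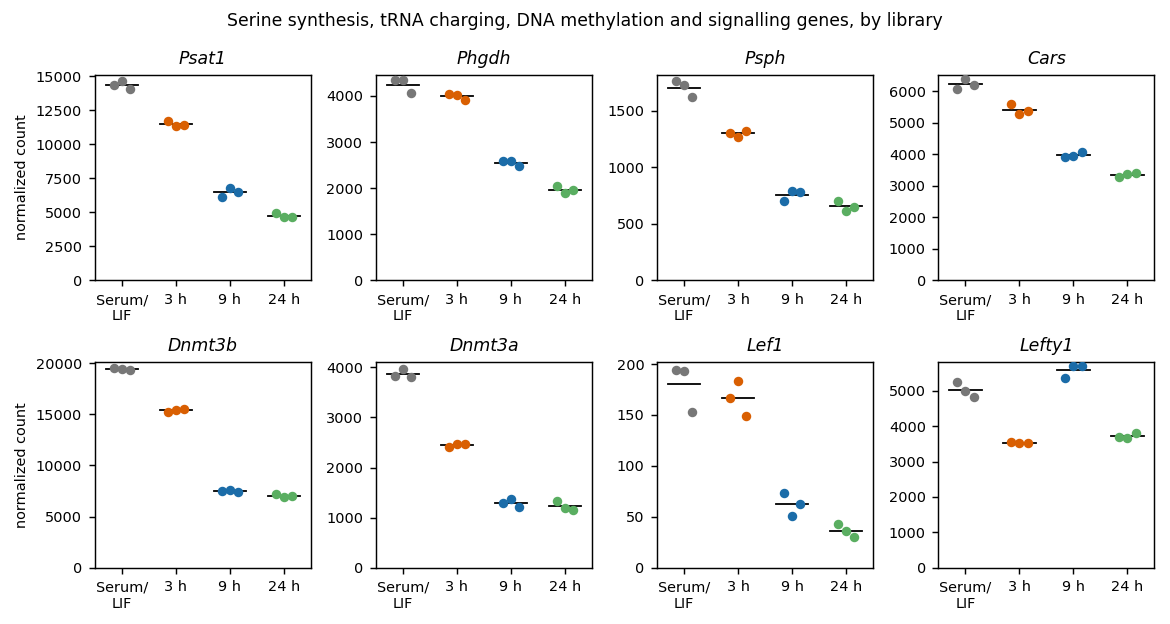
Normalized counts (y axis, from 0) of 8 genes of serine synthesis (Psat1, Phgdh, Psph), tRNA charging (Cars), DNA methylation (Dnmt3b, Dnmt3a) and Wnt and Nodal signalling (Lef1, Lefty1) in Serum/LIF and after 3, 9 and 24 h of EMM (x axis), with 1 point per library and a bar at the mean of 3. In 7 panels the libraries of 9 h lie below all those of 3 h, and in Lefty1 (5356 to 5713 against 3515 to 3551) they lie above.

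Lineage genes passed the test at shares near or below those of all genes (15.3% and 13.4%). Of 17 primitive endoderm genes 1 rose (5.88%) and 2 fell (11.8%), or 4 without replicate 3 of 9 h and 3 without replicate 2 of 9 h. Gata6 had a log2 fold change of 0.42 (edgeR adjusted p = 0.0876) and Hhex rose by 0.36, a call lost without any 1 library of 3 h or replicate 1 of 9 h, with the replicate block and by DESeq2 (adjusted p up to 0.0251). Of 14 trophectoderm genes 1 rose (Tfap2c, by 0.68) and 2 fell (14.3%). These were Gata2, by 0.72, and Cdx2, by 0.56, whose adjusted p of 0.00878 was over the threshold under 10 of the alternatives (up to 0.0457). Tmem54 (-0.41, adjusted p = 0.0354 by edgeR) and Krt8 (0.08) did not pass. In the MHC class I list 4 of 12 fell and 1 rose. H2-K1 fell by 0.86 and H2-D1 by 0.58, genes that can share reads, and Psmb9 of the immunoproteasome by 0.98, while B2m rose by 0.59, from 883, 814 and 865 counts to 1301, 1285 and 1246. Of 17 clock genes 4 rose and 6 fell. The repressor Bhlhe41 fell by 1.13, from 1299, 1084 and 1132 counts to 508, 550 and 541, and Per2 fell by 0.80 and Nfil3 rose by 0.75.

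The remaining genes of the 15 largest rises and falls belong to no theme of the lists. Among the rises Dock10, a guanine nucleotide exchange factor, had 20.6, 12.3 and 13.0 normalized counts at 3 h and 71.7, 83.4 and 66.3 at 9 h, a change of 2.29 on the log2 scale (SE 0.21, adjusted p = 1.01e-05 by edgeR). Grin1, a subunit of NMDA receptors, rose by 1.83 and Tll1, a tolloid-like protease, by 1.80. The other rises were Rab39 (1.78), Rnf152 (1.74), Srrm4os (1.65), the SOX factor gene Sox6 (1.62), the galanin receptor gene Galr2 (1.49), Sh2d4a (1.46), the thiamine transporter gene Slc19a3 (1.37) and Megf11 (1.37). Srrm4os overlaps Srrm4 on the opposite strand.

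Among the 15 largest falls were the transcription factor genes Srf and Lef1, described above, and Pax8, Snai3, Emx2 and Zfp423. The share of such genes among all tested genes was not computed, so no theme is drawn from them. Pax8 had 68.9, 76.8 and 75.1 normalized counts at 3 h and 19.1, 19.0 and 10.4 at 9 h, a log2 difference of -2.16 with an SE of 0.20 (adjusted p = 1.19e-05, edgeR). Snai3 had 258, 284 and 250 and then 59.0, 72.0 and 52.9, a log2 fold change of -2.09, and Emx2 fell by 1.56. The zinc finger gene Zfp423 was the most abundant of these transcription factor genes. It had 4884, 4818 and 4877 counts at 3 h and 1857, 1998 and 1900 at 9 h, a change of -1.33 on the log2 scale (SE 0.04, adjusted p = 6.62e-09 by edgeR). Its mean was 2542 in Serum/LIF and 2548 at 24 h. The other falls were Lor (-2.01), the embryonic myosin gene Myh3 (-1.63), the metabotropic glutamate receptor gene Grm2 (-1.46), Il13ra1 (-1.46), the meiotic gene Tex11 (-1.32), Mlf1 (-1.30) and the potassium channel gene Kcnh8 (-1.27).

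Libraries that the comparison does not use, those of 24 h of EMM and of Serum/LIF, show where the called genes stood a day after the switch, and share no sample with it. Of 15437 genes tested between them 529 were higher (3.43%) and 696 lower (4.51%) at 24 h by the same thresholds. Of the 131 genes called higher at 9 h, 123 were tested there, 35 were higher (28.5%) and 4 lower (3.25%), against 3.42% and 4.11% of the 15138 genes tested in both comparisons. The 4 were Egln3, Stc1, Rasgrp1 and Flrt1, named after their values were seen, and their number was 2 without replicate 3 of 9 h, replicate 2 of 3 h, replicate 2 of 24 h or replicate 1 of Serum/LIF. Of the 127 called lower, 118 were tested, 55 were lower (46.6%) and 7 higher (5.93%). Median log2 fold changes at 24 h over Serum/LIF were 0.59 for the genes called higher, -0.94 for those called lower and 0.009 for all genes tested in both. These counts describe the called genes and were not tested.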

How the data were processed

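RNA was sequenced after depletion of ribosomal RNA. The authors deposited 1 table of read counts per gene for the time course, as whole numbers that were not normalized. The study's methods name STAR and HTSeq, and the submitters' processing notes list STAR, featureCounts, DESeq2 and mm10, so the counter is uncertain. The strand setting and annotation are not given in the sources used here, and the methods describe counts of introns and of exons without saying which the table holds. All 12 count columns were matched to samples by label. Of 52630 identifiers 52483 matched a symbol. Coordinates and lengths are from GENCODE M21 (GRCm38), promoters from RefSeq.

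Genes of the 6 libraries were filtered with filterByExpr, scaled with TMM and tested with edgeR 4.0.16 (quasi-likelihood, R 4.3.3), adjusting p-values over all tested genes by Benjamini-Hochberg. Calls used the study's thresholds, an adjusted p under 0.01 and a log2 fold change over 1 in size. Members of lists used the adjusted p alone. Normalized counts are counts scaled by TMM over the 12 libraries. The common dispersion was 0.0025. EMM at 24 h and Serum/LIF were fitted apart in the same way (15437 genes). On simulated counts for the 2 groups (15323 genes), 100 of 100 genes changed by 2 and 100 of 100 changed by 1.5 on the log2 scale were recovered, with 0 false calls. The changed genes left out those of lowest level, and no library was made to stand apart. Smaller changes, such as the medians of the calls (1.24 and -1.23), were not simulated, so the recovery does not cover them. Alternatives were DESeq2 size factors, library totals, other filters, DESeq2 1.42.0, larger models, the replicate block, libraries left out in turn, an adjusted p under 0.05 and no fold threshold.

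The comparison, its lists and its motifs were chosen with earlier results of these data known, and the CArG box after the promoters were seen. Named genes are the 15 largest rises and 15 largest falls past the thresholds, up to 4 members past the test and the first member of each list, and genes the study names. The largest rises and falls had to have at least 50 mean normalized counts in 1 group and no overlap between the libraries of 9 h and 3 h. Symbols of Gm plus digits, or ending in Rik or -ps, were left out of them. The members picked by the test also had to have at least 50 mean counts in 1 group. Other list members in the text were chosen after their values were seen. The series' other samples were not used here. Replicates are numbered as in the sample titles.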

Additional observations from a re-analysis of the deposited data

How the results depend on the processing

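The counts of genes higher and lower at 9 h were 111 to 138 and 100 to 144 with any 1 library left out. Under DESeq2's Wald test they were 99 and 99, under library totals alone 155 and 110, with no filter 175 and 173, and where each library had to hold 10 or more counts 94 and 94. Without the fold threshold they were 2376 and 2078, and at 24 h against Serum/LIF 3117 and 3083. With any 1 library left out the counts at 24 h were 462 to 544 higher and 620 to 705 lower. Of genes called higher at 9 h, those higher at 24 h over Serum/LIF were 28 to 40 and those lower 2 to 5 with any 1 library left out, and of genes called lower, those higher at 24 h were 5 to 9 and those lower 40 to 57. Where 10 or more counts were required in each library they were 23 and 2 of genes called higher and 34 (lower) of genes called lower. Without the fold threshold they were 1067, 222, 229 and 1127, since more genes were called. Of 228 named genes past the threshold 29 lost it under at least 1 alternative, and none of 256 tested changed sign past it. Of 114 list counts 51 moved by over 1.5 times under at least 1 alternative, 9 of them among the 32 counts of 5 or more.

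Same-numbered samples of 9 h and 3 h had deviations that correlated at 0.0516, -0.118 and -0.118 over 11077 genes, and those of 24 h and Serum/LIF -0.0409, -0.464 and 0.378, so numbers in the titles were not taken as pairs. The table's columns number the EMM libraries 1 higher than the titles, which leaves the pairs of 9 h and 3 h as they are. At 24 h and in Serum/LIF the 2 numbers that the columns share gave 0.647 and 0.488, too few pairs for the numbers to be taken as a pairing, and no fit used them. With the replicate block, which used the title numbers, 115 genes were higher and 109 lower at 9 h, and 513 and 690 at 24 h over Serum/LIF. At 24 h it joined other libraries than the column numbers do, so it cannot check a batch shared by column number. Of genes called higher at 9 h under the block 33 were higher and 3 lower at 24 h, and of those called lower 7 were higher and 43 lower.

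Low counts limit what was seen of genes at the floor, and 3 libraries a group limit the precision of every p-value. The strand of counting and the share of intron reads were not tested.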

Other observations

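Rpl36 split the libraries of several groups and was not past the test (log2 fold change 1.5 at 9 h, edgeR adjusted p = 0.0809). It had 7321, 1862 and 11647 normalized counts in Serum/LIF, 2018, 2056 and 1674 at 3 h, 1613, 1687 and 12860 at 9 h and 1563, 14625 and 14259 at 24 h. Histone genes of the clusters made up 86.2, 22.1 and 29.7 CPM in Serum/LIF and 21.1, 30.5 and 30.3 at 24 h, so they were lowest in the same library as Rpl36 in both groups.

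Of 27 lysosomal and autophagy genes 11 rose (40.7%, against 15.3% of all genes) and 3 fell (11.1%, against 13.4%) from 3 h to 9 h, with 1 fall without replicate 2 of 3 h. The rises were 13 without replicate 3 of 9 h and 8 to 13 with any 1 library left out. Atp6v0d1, of the proton pump, rose by 0.42, while Tfeb, a regulator of lysosomal genes, fell by 0.42. Of 16 heat shock genes 7 fell (43.8%) and 2 rose, or 1 when any 1 library other than replicate 3 of 9 h was left out. The chaperone gene Hsph1 fell by 0.67. In NAD synthesis 4 of 11 rose (36.4%) and 1 fell (9.09%, with 0 falls without replicate 3 of 3 h and 2 without replicate 2 or 3 of 9 h), and Nampt, its rate-limiting enzyme, rose by 0.35.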
